A study of Mus musculus with 4 samples.

Results

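Resting conventional CD4 T cells of the mouse lung are described here: helper lineage T cells that carried the T cell receptor complex and the CD4 coreceptor and held no UMI of 9 genes that mark CD8, regulatory, activated, memory, gamma-delta, precursor or B cells. They were chosen by their raw UMI counts, that is, counts of transcript molecules with unique identifiers. A chosen cell had at least 200 genes and at most 10% mitochondrial UMIs, at least 2 UMIs of Cd3d, Cd3e and Cd3g together and at least 1 UMI of Cd4. It had no UMI of Cd8a, Cd8b1, Foxp3, Ctla4, Il2rb, Trdc, Rag1, Dntt or Cd79a. These rules kept 952 cells of 15181 cells that passed the cell filter, which is 6.27%, out of 16528 deposited barcodes.

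The study compared lung immune cells without lamin A with WT ones. The Lmna-KO mice were Lmna-flox/flox Vav1-cre+/- and the WT mice Lmna-flox/flox Vav1-cre-/-, so both genotypes carried the floxed gene. All were C57BL/6J mice aged 10 weeks, and live CD45.2+ lung cells were sorted and sequenced with a Chromium 3′ kit, with 2 libraries a genotype. The Vav1 promoter is active in the whole blood lineage, so Cre was not limited to T cells. Every Lmna-KO mouse and no WT mouse carried Cre, so an effect of the recombinase and one of the lost gene cannot be told apart. Sorted lung cells can include cells left in lung blood vessels, and the labels name no step that would separate these from cells in the tissue.

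Naive and resting CD4 T cells circulate between blood and lymphoid organs and are held in a quiescent state by transcription factors such as Lef1, Tcf7, Foxo1 and Klf2. Klf2 drives S1pr1, the receptor by which T cells leave lymphoid organs, and the chemokine receptor Ccr7 helps to bring them back in. When the T cell receptor meets peptide on MHC class II, CD4 recruits the kinase Lck, and the cells can become helper cells that activate B cells and macrophages through CD40 ligand. Lamins A and C, the products of Lmna, are filaments under the inner nuclear membrane that are scarce in resting lymphocytes and abundant in stiff tissues and macrophages.

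The resting CD4 T cells numbered 256 and 240 in Lmna-KO 1 and 2, against 285 and 171 in WT 1 and 2. Their median depth was 4356.5 and 5169.5 UMIs in the Lmna-KO libraries, against 5439 and 5082 UMIs in the WT libraries. Summed over cells, a library held between 915927 and 1690148 UMIs of these cells, and 5050401 in all. No barcode of these cells was shared between libraries. Summed counts of the 2 libraries of a genotype varied more than counting alone gives (chi-square over its degrees of freedom 2.40 in Lmna-KO and 2.55 in WT), so none is a copy of another. One library stood apart in another cell type: WT 2 held 521 cells with Rag1 or Dntt, which are T cell precursor genes, against 27 to 50 in the other 3 libraries.

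The gate removed cells step by step. Of the 15181 filtered cells, 5102 had at least 2 Cd3 UMIs and 1888 of these had Cd4. Excluding Cd8a and then Cd8b1 left 1516 and 1409 cells; in WT 2 the Cd8a step alone took 632 cells down to 287. Excluding Foxp3, the master factor of regulatory T cells, left 1344, and excluding Ctla4, an inhibitory receptor of regulatory and activated cells, left 1132. Il2rb, a receptor chain of memory and innate-like T cells, brought this to 1066, and the gamma-delta receptor gene Trdc to 1027. The precursor genes Rag1 and Dntt and the B cell gene Cd79a removed the last 75 cells, 60 of them through Cd79a.

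Cd4 is a sparse transcript, and 533 of the 952 cells were chosen on a single Cd4 UMI and 419 on 2 or more. Another 597 cells met every other rule with Cd4 at 0 and lay just outside. Lef1 had 770 CPM (UMIs as plain counts-per-million of the summed UMIs) in the cells with 1 Cd4 UMI and 699 CPM in those with none. Igfbp4 had 561 and 516 CPM in the same sets, so both markers were present at a close level on either side of this threshold. At the Cd3 threshold the picture differed. The 8 chosen cells with exactly 2 Cd3 UMIs held 6436 CPM of the macrophage lysozyme gene Lyz2, and the 3 cells outside with 1 Cd3 UMI held 25964 CPM.

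The label was checked against markers. Cd3d and Cd3e, receptor subunits that were part of the rule, were found in 96.8% or more and in 91.2% to 95.8% of the cells of a library. Lef1, which the rule did not use, had at least 1 UMI in 94.1% of cells in Lmna-KO 1, in 228 of 240 cells in Lmna-KO 2, and in 94.4% and 96.5% of WT cells. In B cells, which should lack it, the share was 4.27% to 6.09% at median depths of 3440 to 3920.5 UMIs. Igfbp4, which encodes a secreted binding protein of insulin-like growth factors, had a UMI in 67.2% and 65.8% of Lmna-KO cells and in 68.1% and 62.0% of WT cells, against 0.102% to 0.749% of B cells. After thinning each cell to 3482 UMIs, Lef1 had a UMI in 88.2% to 93.1% of resting CD4 T cells and 3.57% to 5.24% of B cells. Both non-rule markers were thus far above the B cell level in all 4 libraries, and the name was kept. This check sets the cells apart from B cells and does not tell them from other T cells. Resting CD8 T cells are compared below.

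Memory-linked transcripts were detected together in few cells. At least 2 of the 4 memory-linked genes Cd44, S100a4, Itgb1 and Ahnak were present in 6.64% and 7.92% of Lmna-KO cells and in 7.72% and 8.77% of WT cells. A cell with no UMI may still express a gene at this depth, and the rule had already removed cells with Il2rb or Ctla4. Gene sets of polarised cells were rarely detected. Th1 genes (Tbx21, Cxcr3, Ifng, Ccl5) reached at most 0.781% of the cells of a library and Th2 genes (Il4, Il13, Il1rl1, Ccr4) at most 0.702%, each by the same rule. Follicular helper genes (Cxcr5, Bcl6, Pdcd1, Il21) reached 0.585% and regulatory genes other than Foxp3 (Il2ra, Ikzf2, Ikzf4, Tnfrsf4) 1.75%. Some markers outside these sets were common as single genes. Tnfrsf18, also a regulatory marker, had a UMI in 24.2% to 36.7% of the cells of a library. Id2, also a memory or effector marker, had one in 31.25% to 39.3%. A pair of the proliferation genes Mki67, Top2a, Birc5 and Cdk1 was found in 1 cell, in Lmna-KO 2. When cells were thinned to 3482 UMIs, which left 206 and 221 Lmna-KO cells and 270 and 160 WT cells deep enough for it, the memory share was 5.34% and 4.98% in Lmna-KO and 6.30% and 6.88% in WT libraries.

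The receptor beta chain is built with one of a pair of constant genes, Trbc1 or Trbc2, so a population grown from 1 clone would be expected to use a single one of them. Both genes had UMIs in 159 of 256 and 156 of 240 Lmna-KO cells and in 182 of 285 and 109 of 171 WT cells, so most cells were not assigned by a single gene. Cells with more Trbc1 than Trbc2 made up 25.4% and 30.04% of the cells with unequal counts in Lmna-KO libraries, against 27.6% and 34.5% in WT libraries. The share was neither near 0 nor near 100% in any library. The genes are close paralogs, and 3′ reads may be split between them.

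Markers of other cell types were counted next, because each barcode can hold more than one source of RNA. Erythroid and gamma-delta lists were near 0, at 3 and 7 UMIs in all 952 cells, and the platelet list had 71 UMIs, 34.9 CPM at most. In a library the NK cell list summed to 28.4 to 47.9 CPM and the thymocyte list to 34.9 to 60.0 CPM. The epithelial list summed to 64.4 to 107 CPM, the regulatory T list to 84.1 to 114 CPM and the innate-like T list to 137 to 247 CPM. The CD8 genes were 0 by the rule. The 11 monocyte or macrophage genes summed to 1064 to 1105 CPM in Lmna-KO and to 1287 to 2636 CPM in WT libraries. These UMIs sat in few barcodes: 31 cells (5 and 8 in Lmna-KO libraries, 14 and 4 in WT libraries) held 10 or more UMIs of the macrophage and neutrophil lists. Without those cells the macrophage list was at 167 to 189 CPM in Lmna-KO and at 140 to 174 CPM in WT libraries. The 8 neutrophil genes summed to 100 to 961 CPM in Lmna-KO and to 356 to 606 CPM in WT libraries, and the 10 B cell genes to 568 to 1401 CPM in Lmna-KO and to 1145 to 1205 CPM in WT libraries. By simulated doublets, 17 of the 952 cells were among the highest-scoring barcodes of their library. Other genes of such cells were not set to 0 by the rule: Nkg7 had 34 UMIs and Il2ra 12 in the 952 cells. A UMI of a thymocyte list gene was held by 32 to 42 cells a library. Cd69, an early activation gene, was common, with 828 UMIs in the 952 cells. It had a UMI in 30.5% to 50.3% of the cells of a library, and in 25.7% to 42.5% after thinning. Icos had one in 27.3% to 36.25%, without thinning. The name resting thus rests on the genes of the rule and does not mean that Cd69 or Icos was absent.

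The first comparison asked whether these cells made up a different part of the sorted lung cells. They were 6.79% (exact 95% interval 6.01% to 7.64%) and 6.68% (5.89% to 7.55%) of filtered cells in the Lmna-KO libraries, against 7.23% (6.44% to 8.09%) and 4.41% (3.78% to 5.10%) in the WT libraries. The Lmna-KO values lay between the WT values, and WT 2 was the low one. The means were 6.74% ± 0.077 in Lmna-KO and 5.82% ± 2.00 in WT (SD, n = 2 each).

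**Figure D1:**
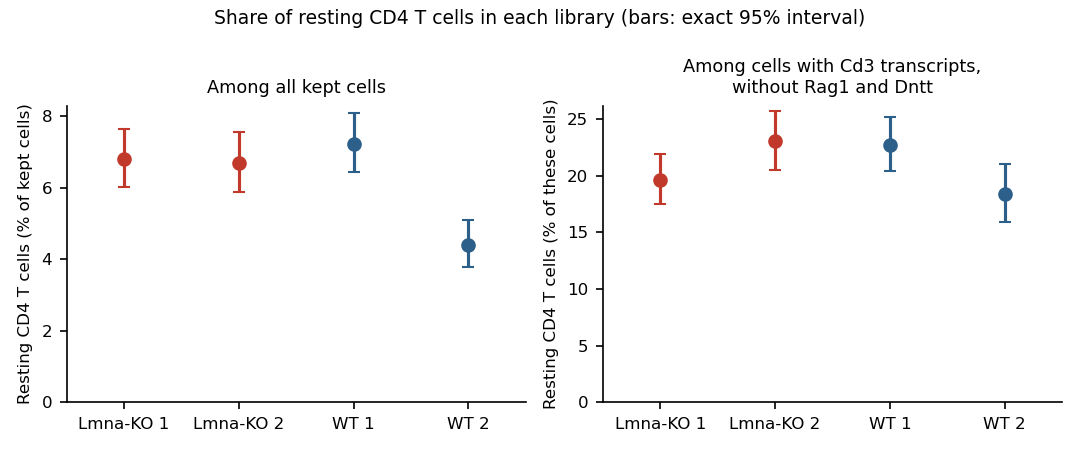
Share of resting CD4 T cells in each library, in percent of all filtered cells (left) and of cells with Cd3 transcripts and no Rag1 or Dntt (right), with Lmna-KO libraries left of WT libraries; points are shares and bars exact 95% binomial intervals, which cover counting error only. WT 2 is low on the left at 4.41%, and on the right the Lmna-KO libraries at 19.6% and 23.03% overlap the WT libraries at 22.7% and 18.4%.

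By the edgeR quasi-likelihood test on cell numbers over 12 classes, the log2 fold change of the share was 0.21 (SE 0.30, adjusted p = 0.815). An exact two-sided permutation test of the 4 libraries gave p = 1, where 0.3333 is the smallest value it can give. Among cells with Cd3 transcripts and without Rag1 and Dntt, the share was 19.6% and 23.03% in Lmna-KO libraries, against 22.7% and 18.4% in WT libraries, a log2 fold change of 0.04. With cells thinned to 3482 UMIs before the rule was applied, the share was 7.76% and 7.43% in Lmna-KO libraries, against 6.90% and 4.72% in WT libraries, and the genotypes did not overlap (log2 fold change 0.39, adjusted p = 0.572). Filtered cells with fewer than 3482 UMIs were left out of this share, 1346 and 941 in Lmna-KO and 898 and 1126 in WT libraries. Its denominator thus differs from that of the main share. The direction of the share rested on WT 2: without that library the log2 fold change was -0.10, and without WT 1 it was 0.61 (adjusted p = 0.114). The precursor cells that filled WT 2 are part of its denominator. In these sorted suspensions a lower share of 1 cell type and a higher share of another cannot be told apart.

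The targeted gene came first in the expression comparison. Lmna (chromosome 3, 88480147 to 88509956, minus strand, mm10) had 1 and 8 UMIs in the Lmna-KO resting CD4 T cells, against 48 and 10 UMIs in the WT cells. That is 0.838 and 6.24 CPM, against 29.2 and 11.46 CPM, and from here on CPM of resting CD4, resting CD8 and B cells are scaled by the TMM method unless called plain. The genotypes did not overlap, yet 34 of the 48 UMIs of WT 1 came from 2 cells with 21 and 13 UMIs, both among the 31 cells with macrophage transcripts. Without the 31 cells Lmna had 1 and 6 UMIs in Lmna-KO and 10 and 5 UMIs in WT libraries, where the ranges overlapped; per depth they did not, at 0.880 and 4.97 CPM in Lmna-KO and 7.005 and 6.17 CPM in WT. The log2 fold change over all cells was -2.57 (SE 0.63, adjusted p = 0.157). It passed without Lmna-KO 2 (log2 fold change -4.54, adjusted p = 0.0189) and without WT 2 (-2.97, adjusted p = 8.79e-07), and not without either of the other 2 libraries. In the myeloid cells of the same libraries Lmna was at 23.1 and 23.5 plain CPM in Lmna-KO, against 156 and 119 plain CPM in WT, without overlap. In resting CD8 T cells it was at 11.7 and 3.48 CPM in Lmna-KO, against 12.9 and 14.4 CPM in WT (log2 fold change -0.73, adjusted p = 0.827). B cells had 6.28 and 5.82 CPM of Lmna in Lmna-KO, against 30.2 and 21.6 CPM in WT, without overlap. There Lmna passed the threshold (log2 fold change -2.10, adjusted p = 0.000485). The position of the loxP sites is not in the sources used here, and 3′ counts from outside the floxed part would remain after deletion.

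**Figure D2:**
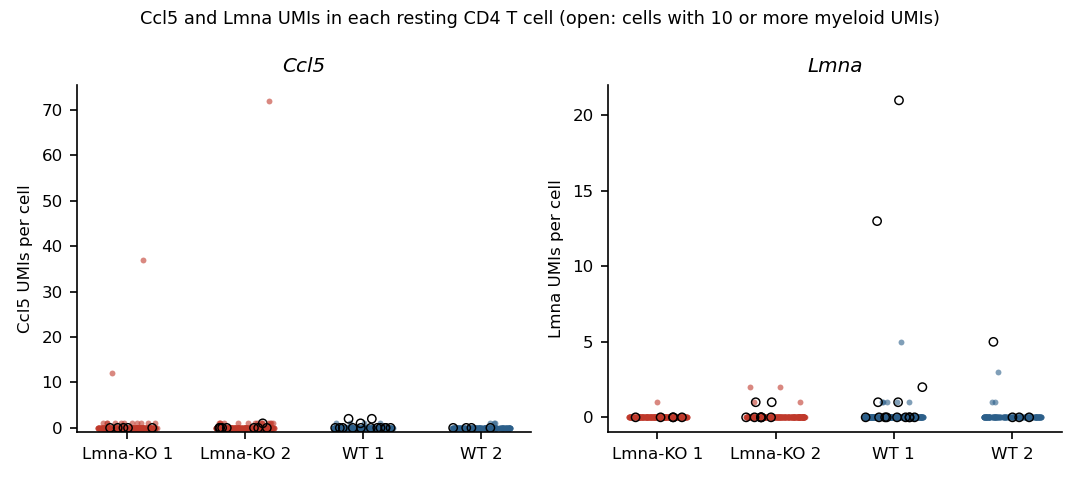
UMIs of Ccl5 (left) and Lmna (right) in each resting CD4 T cell, 1 point per cell, by library, with Lmna-KO left of WT; open points are the cells with 10 or more UMIs of macrophage and neutrophil genes. Of the Ccl5 UMIs in Lmna-KO libraries, 72, 37 and 12 sit in 3 cells, and the 2 highest Lmna cells of WT 1, at 21 and 13 UMIs, are open points.

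The other lamins were also low. Lmnb1, which encodes the B-type lamin B1, had 19.3 and 42.9 CPM in Lmna-KO cells, against 21.9 and 12.6 CPM in WT cells (log2 fold change 0.77, adjusted p = 0.683). Lmnb2 had 7.54 and 12.5 CPM in Lmna-KO cells, against 4.86 and 3.44 CPM in WT cells, which is 9 and 16 UMIs against 8 and 3. Lbr, the lamin B receptor that tethers chromatin to the envelope, had 132 and 121 CPM in Lmna-KO cells, against 123 and 130 CPM in WT cells (log2 fold change 0.00, adjusted p = 0.997). None of the 16 genes of the nuclear envelope list that could be tested passed an adjusted p of 0.05, and their median log2 fold change was 0.01, against -0.00 over all 7877 genes tested.

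Between genotypes few genes differed in resting CD4 T cells. Of 7877 genes tested, 36 passed an adjusted p of 0.05, or 0.457%: 3 were higher in Lmna-KO cells (0.0381%) and 33 lower (0.419%). The 3 higher genes were Igfbp4, the adaptor gene Fyb and the chemokine gene Ccl5. Of the 33 lower genes, 11 encode ribosomal proteins and 5 belong to the respiratory chain or its assembly, groups that were formed after the calls were seen. An unadjusted p under 0.05 was reached by 589 genes, and DESeq2 called 27 genes. Without WT 2 the count was 239 genes, and with any 1 of the other libraries left out it lay between 26 and 49.

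Igfbp4 (chromosome 11, 99041244 to 99054392, plus strand) had 684 and 759 CPM in Lmna-KO cells, against 470 and 464 CPM in WT cells. Both Lmna-KO libraries were above both WT libraries. The means were 721 ± 53.2 CPM in Lmna-KO and 467 ± 4.08 CPM in WT (SD, n = 2 each), a log2 fold change of 0.63 (SE 0.13, adjusted p = 0.0216). The share of cells with a UMI was close between genotypes, as given above. In resting CD8 T cells of the same libraries Igfbp4 had 213 and 183 CPM in Lmna-KO and 99.6 and 143 CPM in WT (log2 fold change 0.72, adjusted p = 0.0915). The call in CD4 cells was lost without Lmna-KO 1 (adjusted p = 0.0982) or Lmna-KO 2 (0.218), with log2 fold changes of 0.70 and 0.55.

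Fyb (chromosome 15, 6522853 to 6663313, plus strand) encodes ADAP, an adaptor that links the T cell receptor to integrin activation. It had 777 and 818 CPM in Lmna-KO cells, against 544 and 531 CPM in WT cells, again without overlap. The log2 fold change was 0.57 (SE 0.13, adjusted p = 0.0447). Resting CD8 T cells had 643 and 687 CPM in Lmna-KO and 434 and 431 CPM in WT (log2 fold change 0.62, adjusted p = 0.0398). B cells, which hold little Fyb, had 35.8 and 14.9 CPM in Lmna-KO and 26.4 and 26.8 CPM in WT. Leaving out Lmna-KO 1, Lmna-KO 2 or WT 1 ended the call, with adjusted p values of 0.207, 0.264 and 0.0641 and log2 fold changes of 0.53 to 0.61. The call was also lost with RLE scaling (0.0515) and without cells with thymocyte transcripts (0.0609).

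Ccl5, a chemokine of memory and cytotoxic T cells, had 50.3 and 68.7 CPM in Lmna-KO cells, against 5.47 and 3.44 CPM in WT cells (log2 fold change 3.62, SE 0.34, adjusted p = 2.26e-06). The difference came from few cells. In Lmna-KO 1 a cell with 37 UMIs and one with 12 held 49 of 60 UMIs, and in Lmna-KO 2 a single cell held 72 of 88. Without these 3 cells the log2 fold change was 1.196 and the adjusted p 0.640. The share of cells with a Ccl5 UMI was 13 of 256 and 17 of 240 in Lmna-KO, against 7 of 285 and 3 of 171 in WT.

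**Figure D3:**
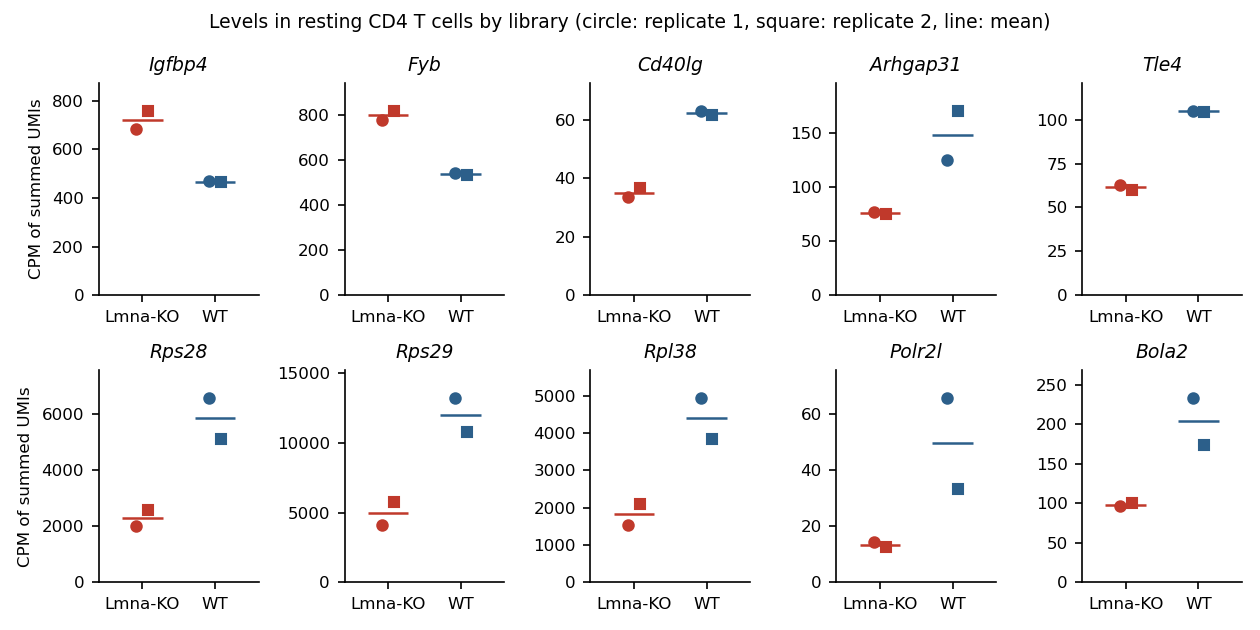
CPM of summed UMIs in resting CD4 T cells for 10 genes, 1 panel per gene with its own axis from 0, Lmna-KO left of WT; the circle is replicate 1, the square replicate 2 and the line the mean of 2 libraries. In each panel both Lmna-KO libraries lie on one side of both WT libraries: above them for Igfbp4 and Fyb and below them for the other 8 genes, of which Cd40lg did not pass the threshold (adjusted p = 0.0736). The genes were picked with their values known, most by a rule that asks for this separation, so it adds no evidence.

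The ribosomal protein gene Rps28 (chromosome 17, 33819027 to 33824562, minus strand) had the lowest p of the lower genes. It had 2020 and 2588 CPM in Lmna-KO cells, against 6569 and 5106 CPM in WT cells (log2 fold change -1.34, SE 0.15, adjusted p = 0.000140). Rps29 had 4132 and 5779 CPM in Lmna-KO cells, against 13215 and 10764 CPM in WT cells. Neither gene had overlapping genotypes. Rpl38, Rps27, Rps21, Rpl37a, Rpl41, Rpl37, Rpl39, Rpl36 and Rpl36a also fell, with log2 fold changes of -1.26 to -0.61. The other 69 ribosomal protein genes tested did not pass, and their median was -0.01. Ribosomal protein genes took 32.2% and 34.1% of UMIs in Lmna-KO cells, against 34.7% and 36.4% in WT cells.

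Of the 13 mitochondrially encoded genes, 1 fell. The mitochondrially encoded complex I gene mt-Nd3 had 874 and 1047 CPM in Lmna-KO cells, against 1996 and 1591 CPM in WT cells (log2 fold change -0.90, adjusted p = 0.00176). Atp5k, a small subunit of ATP synthase, had 65.3 and 91.3 CPM in Lmna-KO cells, against 198 and 136 CPM in WT cells. Ndufa3 of complex I, the copper chaperone gene Cox17 and the assembly factor gene Pet100 fell by 0.78, 0.90 and 0.98 on the log2 scale. The other 12 mitochondrially encoded genes did not pass.

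Many of the lower genes have short transcripts: the median length of the 33 was 835 bases, against 2949 bases over all genes tested. The 11 ribosomal protein genes that fell had a median transcript length of 457 bases, against 914 bases for the other 69. Over all genes tested, the median log2 fold change was -0.90 for the 19 genes of up to 400 bases, -0.28 for the next 45 genes, of up to 500 bases, and -0.14 for the 64 genes after those, of up to 600 bases. It was 0.07 for the 435 genes up to 1000 bases and -0.05 above 2500 bases. The same libraries gave -0.91 in resting CD8 T cells and -0.81 in B cells for genes of up to 400 bases. The shortest transcripts were thus lower in all 3 cell types of these libraries. With transcript length as an offset in the fit, 51 genes were called, 35 of them among the 36. The offset left most of the drop of short genes in place. The log2 fold change went from -1.34 to -1.20 for Rps28, from -1.27 to -1.10 for Rps29 and from -1.07 to -0.85 for Rps27. The 35 shared calls thus do not show that the calls are independent of length. The part of fragment or library length in these calls was not tested.

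**Figure D4:**
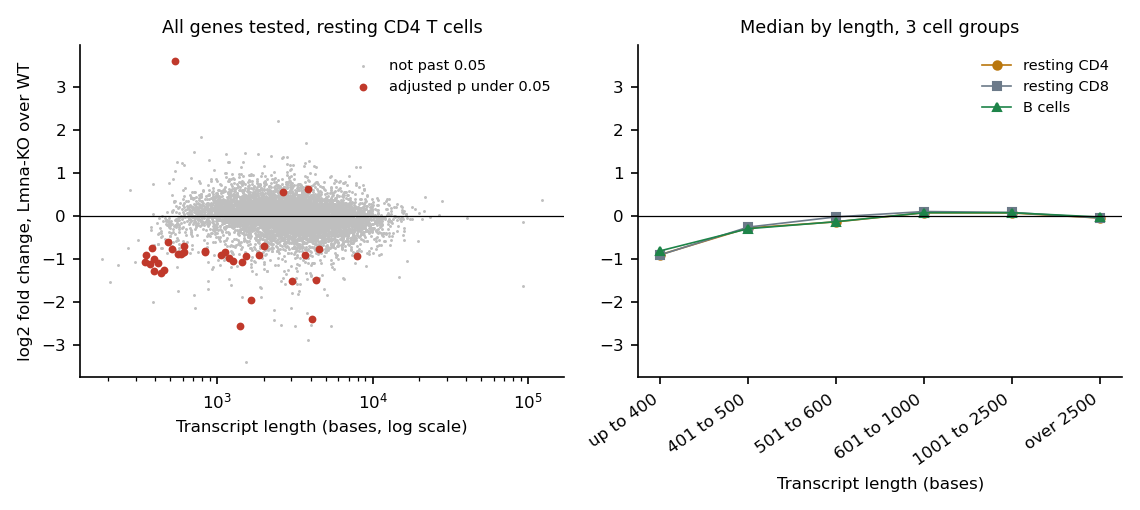
Left, log2 fold change (Lmna-KO over WT) of each gene tested in resting CD4 T cells against its transcript length in bases on a log axis, with genes past an adjusted p of 0.05 in red; right, the median log2 fold change per length class in resting CD4 T cells, resting CD8 T cells and B cells. Genes of up to 400 bases sit at medians of -0.90, -0.91 and -0.81, and classes above 600 bases lie near 0.

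Of the remaining 17 lower genes, several are housekeeping genes. Polr2l, an RNA polymerase subunit gene, had 14.2 and 12.5 CPM in Lmna-KO cells, against 65.7 and 33.2 CPM in WT cells (log2 fold change -1.96, SE 0.33, adjusted p = 0.00700). Its call was lost without any 1 of Lmna-KO 1, Lmna-KO 2 and WT 1, and without WT 1 its log2 fold change was -1.31 (adjusted p = 0.284). The log2 fold change of Polr2l was -1.95 in resting CD8 T cells (adjusted p = 0.0335) and -1.31 in B cells (adjusted p = 0.00287). Bola2, an iron-sulfur protein gene, had 96.3 and 101 CPM in Lmna-KO cells, against 233 and 174 CPM in WT cells. For Bola2 it was -0.76 in resting CD8 T cells (adjusted p = 0.108) and -0.88 in B cells (adjusted p = 0.00435). Tomm7 of the mitochondrial import pore, Snrpg of the spliceosome and Sec61g of the translocon fell by 0.85, 0.91 and 0.92 on the log2 scale. In B cells of the same libraries their log2 fold changes were -0.71, -0.91 and -0.77. Trmt10a, a transfer RNA methyltransferase gene, Zcchc9 and 2010107E04Rik fell as well.

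A pair of longer genes also fell. Arhgap31, a GTPase-activating protein gene for Rac and Cdc42, had 77.1 and 74.9 CPM in Lmna-KO cells, against 125 and 171 CPM in WT cells (log2 fold change -0.94, SE 0.18, adjusted p = 0.0118). In resting CD8 T cells its log2 fold change was -0.72 (adjusted p = 0.0693) and in B cells -0.78 (adjusted p = 0.0337). Tle4, a transcriptional corepressor gene, had 62.8 and 60.1 CPM in Lmna-KO cells, against 105 and 104 CPM in WT cells (log2 fold change -0.77, SE 0.17, adjusted p = 0.0481). Both calls were also made without the 31 cells with macrophage transcripts, with adjusted p values of 0.00267 and 0.0136.

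The last 7 lower genes went with those 31 cells. Tppp3, the transcription factor gene Klf4, the macrophage perforin-2 gene Mpeg1 and the leukocyte gene Lst1 had log2 fold changes of -2.58, -1.51, -1.49 and -1.11 over all cells and were too low to test without them. Anxa2 and Ahnak, which mark memory T cells and also macrophages, had log2 fold changes of -0.24 and 0.35 without them and were not called. The immediate early phosphatase gene Dusp1 was at -0.32 and was not called. Of the 36 genes, 29 were called again among 44 calls without the 31 cells. Cd40lg (chromosome X, 57212143 to 57224042, plus strand), CD40 ligand, had 33.5 and 36.7 CPM in Lmna-KO cells, against 63.2 and 61.9 CPM in WT cells. Its log2 fold change was -0.83 (SE 0.20, adjusted p = 0.0736) over all cells and -0.94 (adjusted p = 0.0227) without the 31 cells.

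Below the threshold, genes on the higher side with the next lowest p values included Hspa1b, Pdlim4, Mrps14 and Med8. The heat shock gene Hspa1b had 30.2 and 33.6 CPM in Lmna-KO cells, against 9.12 and 17.2 CPM in WT cells (log2 fold change 1.38, adjusted p = 0.0736). Pdlim4, an actin-binding LIM protein gene, had 68.7 and 98.4 CPM in Lmna-KO cells, against 50.5 and 42.4 CPM in WT cells (adjusted p = 0.0818). Mrps14 and Med8 had log2 fold changes of 0.66 and 0.92 and adjusted p values of 0.0873 and 0.139.

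Lists of T cell genes showed few calls between genotypes, set against 0.457% of all genes. All 30 genes of the receptor complex and its proximal signalling were tested and none passed (median log2 fold change 0.05). Trac, the alpha chain constant gene, had 696 and 685 CPM in Lmna-KO cells, against 556 and 659 CPM in WT cells. Lck had 382 and 446 CPM in Lmna-KO cells, against 322 and 377 CPM in WT cells. Of 23 naive state genes, 1 rose, which was Igfbp4, and 22 did not pass (median 0.01). Lef1 had 777 and 729 CPM in Lmna-KO cells, against 702 and 815 CPM in WT cells, and the genotypes overlapped.

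None of 14 homing genes, 28 cytokine receptor and feedback genes, 28 type I interferon-stimulated genes, 18 MHC class I genes, 17 p53 targets, 10 BCL2 family genes, 10 cytosolic DNA sensing genes, 13 glycolytic genes or 24 actin and SRF target genes passed. Their medians lay between -0.14 for DNA sensing and 0.16 for interferon-stimulated genes. None of the 16 interferon gamma-induced genes, 14 acute activation genes, 10 cell cycle genes, 12 checkpoint and costimulatory genes or 13 CD4 lineage and helper genes passed either. Of 17 memory and effector genes 1 rose, which was Ccl5, and 2 fell, Anxa2 and Ahnak (median -0.22); without the 31 cells Ccl5 was the 1 call, and the median was -0.02. Of 22 immediate early genes 2 fell, Klf4 and Dusp1 (median -0.04), and none without the 31 cells. Without the 31 cells, 1 helper gene, Cd40lg, and 1 actin list gene were lower. Klf2 had 1703 and 1735 CPM in Lmna-KO cells, against 1236 and 1521 CPM in WT cells (log2 fold change 0.32, adjusted p = 0.576). S1pr1 had 451 and 383 CPM in Lmna-KO cells, against 565 and 455 CPM in WT cells (-0.30, adjusted p = 0.642). The standard errors were 0.13 for Klf2 and 0.14 for S1pr1, and a p that misses the threshold does not show that the genotypes are alike.

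The second expression comparison set resting CD4 T cells against resting CD8 T cells, 1060 cells chosen by the mirror rule (Cd8a or Cd8b1 present, Cd4 at 0, the other genes at 0). Both classes came from each library, at median depths of 4356.5 to 5439 UMIs in CD4 and 5037 to 5832 UMIs in CD8 cells, and the genes of the rules were left out. The helper lineage genes Zbtb7b, Cd40lg and Gata3, the costimulatory receptor gene Cd28, 15 of 23 naive state genes and the receptor genes Il4ra and Il6ra were higher in CD4 cells. Nkg7, Gzma and Klrd1 of cytotoxic lymphocytes, the integrin gene Itgae, 6 of 18 MHC class I genes and the adhesion receptor gene Cd226 were lower. Of 8143 genes tested with library as a block, 921 passed (11.3%), 484 higher in CD4 cells (5.94%) and 437 lower (5.37%). With at least 20 CPM in the higher class and the same direction in 4 of 4 libraries, 404 were higher and 337 lower. Among those, 16 were higher and 23 lower at least 4-fold.

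**Figure D5:**
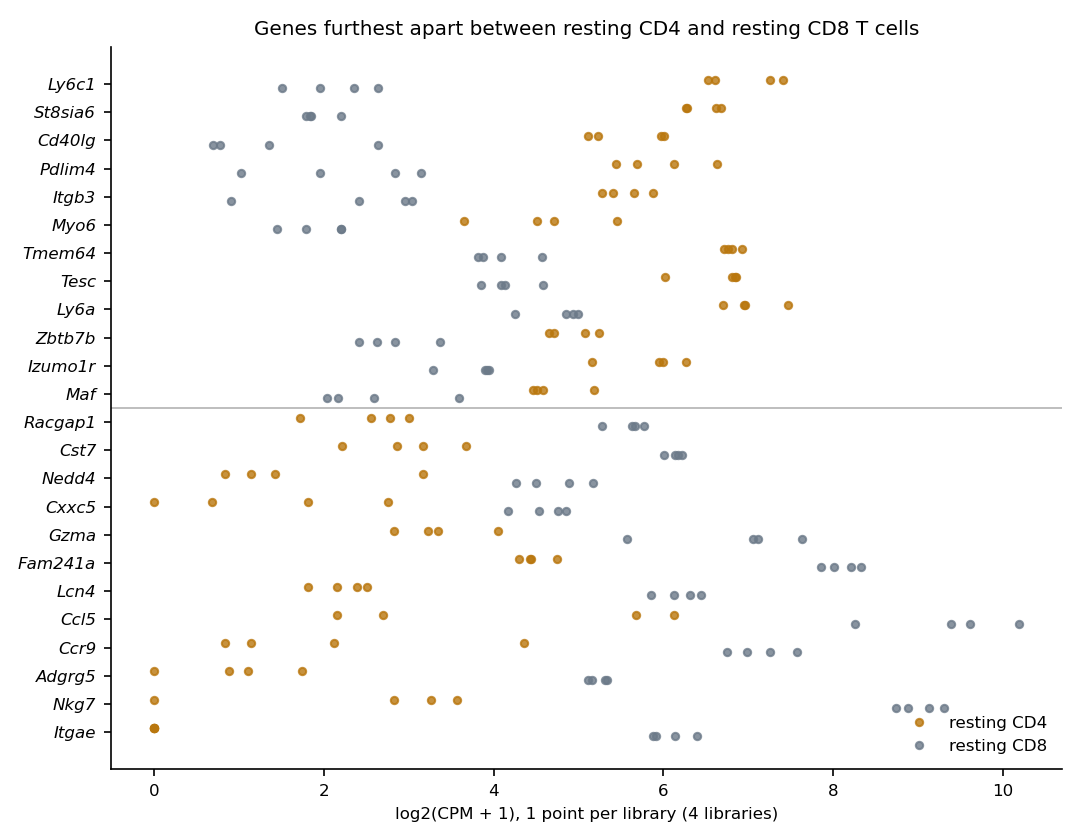
The 12 genes with the highest (top) and the 12 with the lowest (bottom) log2 fold changes of resting CD4 over resting CD8 T cells, as log2(CPM + 1) in each of 4 libraries per cell type. Points of the cell types do not overlap within a gene: Ly6c1 averages 127 CPM in CD4 and 3.52 CPM in CD8 cells, and Itgae is at 0 UMIs in CD4 cells. The genes were picked for the largest fold changes of these same values, so the separation adds no evidence.

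Among helper lineage genes, Zbtb7b, which encodes ThPOK, the factor that commits thymocytes to the CD4 lineage, averaged 29.8 ± 6.09 CPM in CD4 and 6.26 ± 2.19 CPM in CD8 cells (SD, n = 4 each; log2 fold change 2.30, adjusted p = 3.55e-11). Cd40lg had 33.5, 36.7, 63.2 and 61.9 CPM in CD4 cells of Lmna-KO 1 and 2 and WT 1 and 2, against 0.617, 5.22, 1.55 and 0.719 CPM in the CD8 cells of the same libraries. Its log2 fold change was 4.72 (SE 0.31, adjusted p = 4.77e-15). Gata3, a factor of CD4 development and Th2 cells, was at 61.5 ± 12.9 CPM in CD4 and 33.3 ± 5.20 CPM in CD8 cells. Maf, Icos and Lta were higher and Myb lower. In all, 6 of 12 tested helper genes were higher and 1 lower, and 5 did not pass, with a median log2 fold change of 0.47 against -0.01 over all genes. Without cells with 10 or more macrophage or neutrophil UMIs, 6 of 10 were higher and 1 lower (median 0.78).

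In the naive state list, 15 of 23 genes were higher in CD4 cells and 2 lower (median 0.33). Igfbp4 led, with 594 ± 150 CPM in CD4 and 160 ± 49.3 CPM in CD8 cells (log2 fold change 1.93, SE 0.08, adjusted p = 3.41e-16). The chromatin organiser gene Satb1 was at 1071 ± 50.5 CPM in CD4 and 724 ± 58.6 CPM in CD8 cells, and Runx1, Bcl11b, Ets1, Bach2, Foxo1 and the antiproliferative genes Btg1, Btg2 and Tob1 were also higher. Lef1 and Tcf7 differed less, by 0.33 and 0.32 on the log2 scale. Dapl1 and Klf3 were lower, at -0.49 and -0.24.

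Among receptor signalling genes, 11 of 30 were higher in CD4 cells and 2 lower (median 0.13). Cd28 was at 523 ± 35.8 CPM in CD4 and 242 ± 30.1 CPM in CD8 cells (log2 fold change 1.14, SE 0.06, adjusted p = 6.69e-24). Cd5, a negative regulator whose level follows the strength of self-peptide contact in the thymus, was at 187 ± 16.5 CPM in CD4 and 87.4 ± 5.49 CPM in CD8 cells (log2 fold change 1.12). Trac, Cd247, Cd6 and Fyn were higher by 0.33 to 0.50. The phosphatase gene Ptpn22 and the thymocyte selection gene Themis were lower, at -0.95 and -0.48.

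Cytokine receptors divided. Il4ra was at 118 ± 12.6 CPM in CD4 and 60.5 ± 9.24 CPM in CD8 cells, and Il6ra at 200 ± 27.4 CPM in CD4 and 119 ± 8.25 CPM in CD8 cells. Il7r, Tgfbr2 and Ifngr2 were higher by 0.43, 0.58 and 0.54 on the log2 scale. Il27ra and Stat4 were lower, at -0.39 and -0.44. In the list as a whole, 10 of 28 genes were higher and 4 lower, with a median of 0.09.

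Homing genes divided as well, with 4 of 16 higher and 5 lower (median -0.14). Gpr183, an oxysterol receptor that guides CD4 T cells to the edge of B cell follicles, was at 168 ± 33.4 CPM in CD4 and 72.6 ± 10.4 CPM in CD8 cells (log2 fold change 1.22). S1pr1, Cxcr4 and Ccr7 were higher by 0.42, 0.29 and 0.20. Selplg and Itga4 were lower, at -0.52 and -0.33. Itgae (chromosome 11, 73090583 to 73147446, plus strand), the integrin alpha E chain, had 0 UMIs in CD4 cells of every library, against 94, 80, 115 and 116 UMIs in CD8 cells. Set against the 3 counts that a count of 0 allows over the 4 libraries together, and in plain CPM of the pooled libraries, it was at least 110.77-fold lower in CD4 cells (CD8 cells held 65.8 plain CPM).

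Genes of cytotoxic lymphocytes were among the lowest. Nkg7, a granule membrane gene, averaged 6.39 ± 4.69 CPM in CD4 and 523 ± 90.9 CPM in CD8 cells (log2 fold change -6.22, adjusted p = 0.000591). Gzma, granzyme A, averaged 9.81 ± 4.08 CPM in CD4 and 128 ± 62.2 CPM in CD8 cells, and Ccl5 32.0 ± 32.7 CPM in CD4 and 731 ± 354 CPM in CD8 cells. Klrd1, the CD94 receptor chain, averaged 29.9 ± 5.35 CPM in CD4 and 237 ± 25.1 CPM in CD8 cells. Ikzf2, Helios, which also marks regulatory T cells, averaged 7.47 ± 1.47 CPM in CD4 and 33.5 ± 16.9 CPM in CD8 cells. The gut homing receptor gene Ccr9 averaged 6.21 ± 8.92 CPM in CD4 and 144 ± 36.3 CPM in CD8 cells, and 17 of its 24 UMIs in CD4 cells were in WT 2, the library with the precursor cells. Ccr9 also marks thymocytes.

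Other surface receptors differed. Cd226, DNAM-1, averaged 20.1 ± 4.62 CPM in CD4 and 78.8 ± 8.63 CPM in CD8 cells. Cd160, Cd48 and Cd96 were lower as well, and Btla and Tnfrsf4 (OX40) higher by 1.11 and 1.67 on the log2 scale. In the MHC class I list 6 of 18 genes were lower, 1 higher and 11 did not pass (median -0.11), led by H2-Q6 at 53.7 ± 10.5 CPM in CD4 and 120 ± 20.2 CPM in CD8 cells. H2-Q6 and H2-Q7 are near-identical genes between which reads can be split. Of 22 immediate early genes, 9 were higher in CD4 cells and 1 lower (median 0.19). Without cells with 10 or more macrophage or neutrophil UMIs, 14 of 19 were higher and 1 lower (median 0.39). Junb was at 911 ± 134 CPM in CD4 and 555 ± 79.8 CPM in CD8 cells. Genes of this kind also respond to tissue dissociation, whose part was not tested; both classes went through the same sort.

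The highest fold change was that of a small surface antigen gene. Ly6c1 (chromosome 15, 75044018 to 75048830, minus strand) had 96.3, 169, 91.2 and 152 CPM in CD4 cells of Lmna-KO 1 and 2 and WT 1 and 2, against 1.85, 5.22, 4.13 and 2.87 CPM in CD8 cells. The log2 fold change was 5.12 (SE 0.18, adjusted p = 7.54e-34). The related gene Ly6c2 (75108158 to 75111970, same chromosome and strand) ran the other way, with 21.5 ± 7.05 CPM in CD4 and 176 ± 53.3 CPM in CD8 cells (log2 fold change -2.91, adjusted p = 0.0126). Much of the Ly6c2 in CD4 cells was in the cells with macrophage transcripts: without them it was at 1.23 to 7.92 CPM. The proteins are both known as the antigen Ly-6C, and as close paralogs their reads may be split uncertainly. Their promoters were set side by side because the genes lie close together yet differ in opposite directions between these cells. The sequences are from RefSeq (GRCm38.p6), 250 bases before to 50 after the start, at chr15:75048788-75049087 for Ly6c1 and chr15:75111922-75112221 for Ly6c2, both minus strand and written 5′ to 3′. Capitals mark bases that are identical in a global alignment of the pair.
Ly6c1: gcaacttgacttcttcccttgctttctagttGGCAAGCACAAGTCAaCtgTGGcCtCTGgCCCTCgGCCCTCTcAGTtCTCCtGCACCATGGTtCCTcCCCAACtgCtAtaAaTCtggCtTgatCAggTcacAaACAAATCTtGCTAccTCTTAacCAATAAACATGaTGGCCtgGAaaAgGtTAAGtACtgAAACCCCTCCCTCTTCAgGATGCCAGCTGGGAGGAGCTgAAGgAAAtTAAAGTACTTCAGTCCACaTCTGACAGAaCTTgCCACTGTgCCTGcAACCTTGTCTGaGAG
Ly6c2: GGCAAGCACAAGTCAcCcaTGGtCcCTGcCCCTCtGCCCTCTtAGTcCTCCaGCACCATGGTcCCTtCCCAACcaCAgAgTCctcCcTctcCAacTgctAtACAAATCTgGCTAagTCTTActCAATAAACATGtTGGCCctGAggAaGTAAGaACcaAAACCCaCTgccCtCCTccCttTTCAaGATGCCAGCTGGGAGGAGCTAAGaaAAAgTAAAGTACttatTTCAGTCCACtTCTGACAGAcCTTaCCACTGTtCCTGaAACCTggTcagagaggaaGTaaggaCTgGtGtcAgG
They were identical in 213 of 335 aligned columns, or 63.6%, and each 300-base window holds stretches with no match in the other window. The aligned columns include unmatched window ends, such as the first bases of Ly6c1. Sequence beyond the windows was not compared. The reference lists 2 promoters for each gene, and the first was used. Which bases bear on the difference was not tested.

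Other genes high in CD4 cells were the sialyltransferase gene St8sia6 (87.8 ± 13.5 CPM in CD4 and 2.81 ± 0.524 CPM in CD8 cells), Pdlim4, the integrin beta 3 gene Itgb3, the myosin gene Myo6, Tmem64, Tesc, Ly6a (the antigen Sca-1) and Izumo1r (folate receptor 4). Their log2 fold changes ran down to 2.20 for Izumo1r. The low end held Fam241a (21.5 ± 3.11 CPM in CD4 and 275 ± 39.9 CPM in CD8 cells), Adgrg5, Lcn4, Cxxc5, Nedd4, the protease inhibitor gene Cst7 and Racgap1, with log2 fold changes of -5.04 to -3.13. Without cells that held 10 or more macrophage or neutrophil UMIs, 1028 genes passed, 824 of them among the 921. Without cells with thymocyte transcripts 567 passed, 490 of them among the 921, and without WT 2 696 passed.

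The last comparison tested whether the genotype effect in CD4 cells differed from that in CD8 cells. Of 8743 genes, 8 passed (0.0915%), 7 with a lower effect in CD4 cells (0.0801%) and 1 with a higher one (0.0114%). An unadjusted p under 0.05 was reached by 416 genes. The effects on Igfbp4 and Fyb differed by -0.11 and -0.04 on the log2 scale (SE 0.16 and 0.11, adjusted p = 1 for both). Without the cells with macrophage transcripts 7 genes passed, of which 1 was among the 8. Of these, 7 had a higher effect in CD4 cells and 0 a lower one. The count was 3 without Lmna-KO 1, all with a higher effect and 0 of them among the 8, 16 without WT 1 and 78 without WT 2. The 8 genes, and the 7 that passed without the cells with macrophage transcripts, are given with the results for a closer look.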

How the data were processed

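Live CD45.2+ lung cells of 2 Lmna-KO and 2 WT mice were profiled with 10x Chromium 3′ chemistry, 1 library a mouse. The deposited values are whole-number UMI counts per gene and barcode, which the authors made with Cell Ranger 3.0.2 on mm10, per the submitters' processing notes, which also name Seurat 3.0.0. Nothing in the labels pairs replicates across genotypes.

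The gate was applied to raw UMIs. Counts were summed per library and cell class and tested with edgeR 4.0.16 in R 4.3.3: quasi-likelihood test with robust dispersion, filterByExpr, TMM scaling and Benjamini-Hochberg adjustment at 0.05. Every adjusted p in the text comes from this test unless another is named. Shares were tested with the quasi-likelihood test over 12 classes, without TMM scaling. TMM over the classes was an alternative, with a log2 fold change of the share of 0.07 (adjusted p = 0.873). The CD4 against CD8 fit had the library as a block. DESeq2 1.42.0 was an alternative. Scripts were tested on simulated data. Between genotypes, p-values measure the spread between 2 mice a genotype. For CD4 against CD8, and for the difference of genotype effects, they measure how far the CD4 to CD8 difference varies between libraries.

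For shares of cells with a gene, cells were also thinned to 3482 UMIs. Simulated doublets scored each barcode, and the highest-scoring 461 barcodes were kept in the main results and left out in an alternative. Transcript lengths are those of the longest APPRIS-principal transcript in GENCODE M21, where 30934 of 31053 features matched. Between genotypes the text names Lmna and up to 12 genes a direction by fold among called genes of at least 20 CPM whose genotypes do not overlap, or the 8 lowest p values where fewer than 8 pass. Between CD4 and CD8 it names the 12 highest and lowest, and list members by p and role. Other called genes between genotypes were named after their values were seen. Members and lists were chosen with earlier results of these data known. Intervals cover counting error only. A few genes are not reported here.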

Additional observations from a re-analysis of the deposited data

Results flagged for a closer look

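The genotype effect differed between resting CD4 and resting CD8 T cells for 8 genes by the test of the difference itself, an interaction term in edgeR's quasi-likelihood test. The values are the log2 effect in CD4 cells minus that in CD8 cells. They were -1.91 for Anxa1 (adjusted p = 0.0112), -11.64 for Folr2 (8.32e-06), 6.50 for Mki67 (0.00595), -2.90 for Nlrp3 (0.0112), -2.46 for Pid1 (0.0488), -2.53 for Tnf (0.00595), -0.65 for Vim (0.00595) and -0.95 for Zfp36 (0.0144). Folr2, a macrophage folate receptor gene, rested on single libraries: 0 and 0 UMIs in Lmna-KO and 22 and 0 in WT CD4 cells, with 48 and 0 in Lmna-KO and 1 and 0 in WT CD8 cells. The proliferation gene Mki67 rested on few cells: it had 3 and 15 UMIs in Lmna-KO and 1 and 0 in WT CD4 cells, and all 15 of Lmna-KO 2 were in 1 cell, with 5 and 1 in Lmna-KO and 8 and 50 in WT CD8 cells. Without cells that held 10 or more macrophage or neutrophil UMIs, Vim was at 0.11 and Zfp36 at -0.19, and Anxa1, Folr2, Nlrp3, Pid1 and Tnf were too low to test. The 7 genes that passed there were Ccl5, Cd74, Mcm3, Mki67, Pclaf, Rrm2 and Top2a, each with a higher effect in CD4 cells. WT 2, the library with the precursor cells, held many of the UMIs of some of them in all resting CD8 T cells. These were 50 of 64 for Mki67, 51 of 63 for Pclaf, 22 of 27 for Rrm2 and 69 of 93 for Top2a. For Cd74 they were 571 of 2645 and for Mcm3 65 of 207. The Ccl5 difference in CD4 cells came from few cells, as given above.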

How the results depend on the processing

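Of 36 genes called between genotypes, 36 were among the 153 called with no filter on low counts, 2 among 6 with the stricter cell filter, which left 26 to 56 cells a library, and 19 among 19 without ribosomal protein and mitochondrially encoded genes. Leaving out 1 library gave 26 to 239 calls, the highest without WT 2. Deviations of same-numbered libraries had a correlation of -0.023 over 7877 genes. With 2 libraries a genotype this does not decide whether the replicates were paired. With the number as a block 31 genes were called, 26 of them among the 36. The block ended the calls of Rps28, Rps29, Rpl38, Rps27 and Atp5k among the named genes. DESeq2 called 27 (19 shared) and RLE scaling 30. The count between CD4 and CD8 cells was 567 without cells with thymocyte transcripts, 1032 with no filter, and 680 to 870 with 1 library left out. The count of differing genotype effects was 26 with no filter, 3 without the highest doublet scores, and 3 (without Lmna-KO 1) to 78 (without WT 2) with 1 library left out. The log2 fold change of the share lay between -0.10 and 0.61 with 1 library left out, and was 0.25 with the replicate block. Lst1 was at 0.10 with at least 2 Cd4 UMIs, the reverse of its main direction. Of 325 values of the 21 named genes under alternatives, 242 kept direction and call, 65 lost the call, 17 gained it and 1 reversed. Fewer cells or genes were tested in the cell and gene subsets; for the other changes the cause was not tested.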

Other observations

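Ly6c1 divided the resting CD4 T cells. After 31 cells with 10 or more macrophage or neutrophil UMIs were left out, 296 cells had a Ly6c1 UMI and 625 had none. This division was chosen after its values were seen and is given with no test; deeper cells are more likely to show a UMI. The values are CPM, unscaled and averaged over 4 libraries. Ly6a, the antigen Sca-1, was at 208 ± 48.8 in cells with Ly6c1 and 101 ± 26.96 in cells without (SD, n = 4), and higher in 4 of 4 libraries. Cd5 was at 161 ± 37.0 in cells with Ly6c1 and 212 ± 10.0 in cells without. Dapl1 and the activation gene Cd69 were also higher in 4 of 4 libraries, Cd69 at 205 in cells with Ly6c1 and 151 in cells without. Cd3e, Cd6, Izumo1r, Nr4a1, Tox, Itgb1, Ikzf2, Gata3 and Tnfrsf4 were also lower in 4 of 4 libraries; Nr4a1, a gene induced by receptor signals, was at 19.7 in cells with Ly6c1 and 39.5 in cells without, and the integrin gene Itgb1 at 24.1 and 85.0. Cd69 and Nr4a1 thus ran in opposite directions. The immediate early gene Egr1 was at 4.04 in cells with Ly6c1 and 8.63 in cells without, lower in 3 of 4 libraries. Nr4a3 was at 6.09 in cells with Ly6c1 and 5.30 in cells without, higher in 3 of 4 libraries. Egr1 and Nr4a3 had at most 8 UMIs a library in either set of cells, so their directions are uncertain. Lef1 was at 764 in cells with Ly6c1 and 792 in cells without, and Tcf7 at 624 and 607, each higher in 2 of 4 libraries.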
